A study of Mus musculus with 48 samples.

Results

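The genes of the eukaryotic translation initiation factors were followed in the liver and colon of mice that differed in the selenium and folate of their diet, before and after weaning. Members were all probes whose accession belonged to a gene with a symbol that starts with *Eif* and a digit from 1 to 6, leaving out the *Eif2ak* kinases, *Eif2s3x* and *Eif2s3y*. The rule used names and no measured value. It gave 87 of the 41174 probes on the array, which stand for 46 of the 18434 genes that could be named. A gene was represented by its brightest probe.

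Initiation factors bring the small ribosomal subunit, the initiator methionyl-tRNA and an mRNA together and release them as the large subunit joins. eIF2 carries the initiator tRNA as a complex with GTP, and eIF2B recharges eIF2 with GTP after each round. eIF3 is a large complex that holds the small subunit, while the eIF4 factors bind the cap of the mRNA through eIF4E, bridge it to the ribosome through the scaffold eIF4G and unwind it with the helicase eIF4A. The 4E-binding proteins hold eIF4E away from eIF4G when nutrient signals through mTOR are low. Most of these genes are active in nearly all cells, and liver is known for a high rate of protein synthesis that follows feeding.

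Total RNA of liver and colon was measured in C57/BL6 offspring aged 12 weeks on 48 Agilent 2-colour arrays. The first letter of a group is the diet of the dam through mating, gestation and lactation and the second letter is the diet of the offspring after weaning, where diet H was supplemented with selenium and folate and diet L was marginally low in both. In HH both diets were H, in LL both were L, HL offspring were switched from H to L and LH offspring from L to H, and every diet was the same high-fat base. Liver was measured in 5 HH mice and in 6 each of HL, LH and LL, and colon in 6 of each group. The titles give a code for each array, which was read as the animal, so that replicates were taken as separate mice. The same code stood on 2 HH liver arrays, so these arrays were averaged. Their deviations from the group mean had a correlation of 0.81 across probes against at most 0.26 for other HH pairs. The methods assign 6 male offspring to each group and describe taking both tissues, but liver and colon shared no code. Tissues of the same animal could thus not be paired, the tests between tissues ignore any such pairing, and litters were not given. Cy3 always marked the mouse and Cy5 a common reference, so dyes were never swapped. The methods make this reference a pool of the animals' own intestine and liver, the deposited design a pregnant mouse with its foetus, and its make-up is thus unsettled. Values are log2 of mouse over reference.

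The labelled tissues held their markers. All 6 hepatocyte genes were higher in liver, with colon minus liver differences of -6.43 to -4.99 on the log2 scale, and all 7 epithelial and 5 smooth muscle genes were higher in colon, by 2.03 to 5.60. The share of spots above background in Cy3 was 55.1 to 66% on liver arrays and 66.8 to 73.7% on colon arrays. The offspring are described as male. Of the 48 arrays, 8 had *Xist* signal over the threshold set here (log2 Cy3 of 8.5), namely HL replicate 2 and LL replicate 6 of the liver and HH replicates 1 and 5, HL replicate 5 and LL replicates 1, 3 and 5 of the colon. LH arrays were not among them. *Ddx3y*, a marker of male tissue, was low (log2 Cy3 of 6.04 to 7.03) on some of these arrays. They were HL replicate 2 of the liver and HL replicate 5 and LL replicates 1 and 3 of the colon. On the rest of those over the threshold *Ddx3y* was 9.34 or more, within the 8.92 to 10.81 of arrays under it. Why these arrays differed was not tested. Results without the mice over the *Xist* threshold are given with the processing. In bulk tissue, fewer cells of a type and less RNA per cell cannot be told apart. Initiation factors were bright genes on this platform. Of the 87 probes, 86 were well above background on all 24 liver arrays (the exception, of *Eif5a2*, on none), 87 on all 24 colon arrays and 0 were saturated on any array. The median average log2 signal over both channels was 11.8 for the members against 7.55 for all probes, and 96.6% of member probes lay above the median of all probes.

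In the main fit, calls among these genes came between tissues and not between diets, at a share near that of all probes. With loess scaling the subunits of single complexes differed in direction, but several of them turned sign with median centring. Across all 8 groups, with slide as a random block in limma, 7 member probes were called higher in colon and 17 were called higher in liver (fold change over 1.5 with FDR, the Benjamini-Hochberg adjusted p, under 0.05), together 27.6% of members against 30.3% of the 41171 probes tested. By direction, 8.05% of member probes were called higher in colon against 15.7% of all probes, and 19.5% were called higher in liver against 14.6%. At FDR under 0.05 with no minimum fold, 24 were higher in colon (30.9% of all probes) and 41 in liver (33.1% of all probes). The median difference, colon minus liver, was -0.14 over members and -0.01 over all probes. This balance depended on how the channels were scaled: with median centring in place of loess the members' median became 0.30 while that of all probes became -0.22, with 31 member probes called higher in colon (35.6% against 24.6% of all probes) and 4 higher in liver (4.6% against 33.4%), and 11 genes turned sign. By gene, 34 of 46 passed FDR under 0.05, 16 higher in colon and 18 higher in liver, and 10 also passed the fold threshold.

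**Figure D1:**
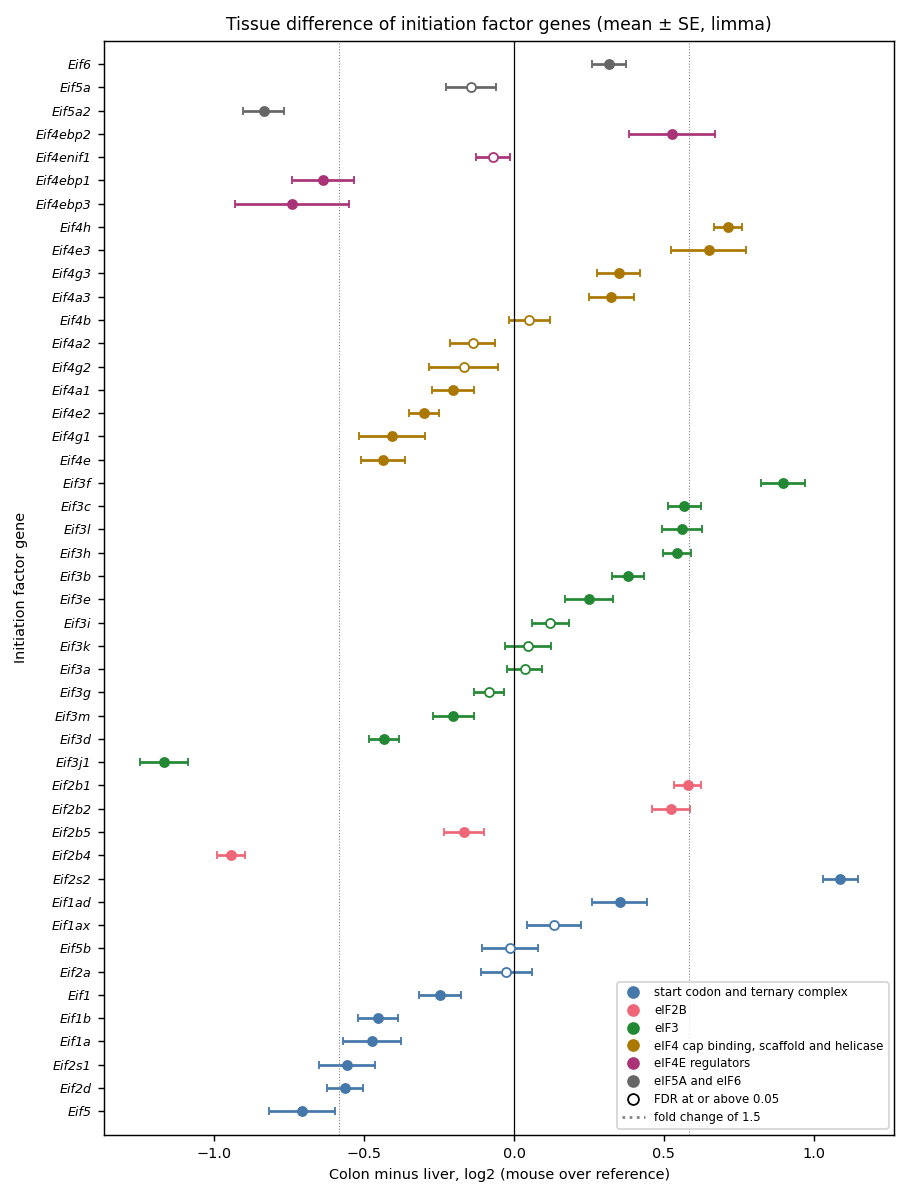
Colon minus liver difference of log2 mouse over reference for the 46 initiation factor genes, 1 probe a gene, with points for the limma estimate, bars for its standard error and colours for the role of the gene. Filled points passed FDR under 0.05 and dotted lines mark a fold change of 1.5; *Eif3j1* at -1.17 and *Eif2s2* at 1.09 lie at the ends, and with median centring in place of loess 11 genes cross the zero line, among them *Eif4e* and *Eif4g1*.

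By diet group, 19 genes had a higher mean in colon in all 4 diets, 20 a higher mean in liver in all 4 diets and 7 were mixed. Single mice still overlapped between the tissues for 37 of 46 genes. In 6 genes (13%) every colon mouse lay above every liver mouse, and in 3 genes (6.52%) every liver mouse lay above every colon mouse. By probe these were 6 of 87 (6.9% against 12% of all probes) and 10 of 87 (11.5% against 11.1%). The promoters printed here are those of the genes with the largest difference in each direction, with *Eif3j1* and *Eif2b4* higher in liver and *Eif2s2* and *Eif3f* higher in colon. Each run is the RefSeq window from 250 bases before to 50 bases after the annotated start on GRCm38.p6, written along the strand of the gene, where capitals mark GGGCGG (the GC box), CACGTG (the canonical E-box) and CCGGAAG (an ETS core), each on either strand.
Eif3j1 (chr2:122028330-122028629, + strand): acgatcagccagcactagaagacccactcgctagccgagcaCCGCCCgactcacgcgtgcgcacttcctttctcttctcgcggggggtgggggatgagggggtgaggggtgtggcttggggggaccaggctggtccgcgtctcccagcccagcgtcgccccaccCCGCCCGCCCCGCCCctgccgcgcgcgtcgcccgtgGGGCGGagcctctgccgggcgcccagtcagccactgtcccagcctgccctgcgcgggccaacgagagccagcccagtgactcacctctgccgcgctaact
Eif2b4 (chr5:31193090-31193389, - strand): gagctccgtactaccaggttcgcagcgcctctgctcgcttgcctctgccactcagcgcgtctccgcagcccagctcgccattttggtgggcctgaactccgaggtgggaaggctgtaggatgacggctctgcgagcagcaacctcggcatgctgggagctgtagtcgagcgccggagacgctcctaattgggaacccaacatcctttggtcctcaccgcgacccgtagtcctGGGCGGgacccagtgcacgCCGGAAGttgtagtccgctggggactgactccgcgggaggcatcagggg
Eif2s2 (chr2:154892857-154893156, - strand): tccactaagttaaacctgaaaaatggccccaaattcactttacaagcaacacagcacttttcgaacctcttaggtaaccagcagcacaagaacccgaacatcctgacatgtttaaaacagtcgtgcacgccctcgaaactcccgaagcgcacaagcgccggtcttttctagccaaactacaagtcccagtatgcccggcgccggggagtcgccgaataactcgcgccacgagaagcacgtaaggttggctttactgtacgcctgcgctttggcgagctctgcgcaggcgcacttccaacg
Eif3f (chr7:108934165-108934464, + strand): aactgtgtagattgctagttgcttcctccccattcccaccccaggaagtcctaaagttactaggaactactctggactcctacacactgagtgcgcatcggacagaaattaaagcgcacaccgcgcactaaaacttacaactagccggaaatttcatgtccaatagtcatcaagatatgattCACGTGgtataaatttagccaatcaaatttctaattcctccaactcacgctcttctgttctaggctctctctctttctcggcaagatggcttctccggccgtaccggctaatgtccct
RefSeq windows were found for 37 of the 46 genes, and the first one listed for a gene was searched on both strands. GGGCGG was in 28 of 37 (75.7%) against 35.9% of all 27025 promoters of this length, CCGGAAG in 13 (35.1%) against 9.12%, and CACGTG in 8 (21.6%) against 7.24%. CCAAT was in 11 (29.7%) against 37.9%, and TATAAA in 3 (8.11%) against 14.2%. In the printed windows GGGCGG was in *Eif3j1* and *Eif2b4*, CCGGAAG in *Eif2b4*, CACGTG in *Eif3f* and none of the marked motifs in *Eif2s2*, and GGGCGG was also in the windows of genes higher in colon, such as *Eif4h*, *Eif2b1* and *Eif3c*. A match is a description of the sequence and says nothing of a factor at the site.

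Among factors for start codon selection and for the ternary complex of eIF2, GTP and initiator tRNA, 2 of 11 genes were higher in colon, 6 were higher in liver and 3 did not pass. *Eif2s2*, which encodes the beta subunit of eIF2, ranged from -0.15 to 0.34 in colon with a median of 0.12 over 24 mice, and from -1.38 to -0.74 in liver with a median of -0.95 over 23 mice. The tissues did not overlap. Its difference was 1.09 ± 0.06 (SE, 2.13-fold, adjusted p = 3.44e-21), although its other probe gave 0.17. *Eif2s1*, which encodes the alpha subunit that is phosphorylated under stress, stood on the other side at -0.56 ± 0.09 (SE), with both of its probes below -0.55, but was at -0.024 (adjusted p = 0.872) with median centring, where *Eif2s2* was at 1.51 (adjusted p = 1.47e-18). *Eif5*, whose product makes eIF2 hydrolyse GTP at the start codon, ranged from -0.33 to 0.68 in colon and from 0.03 to 1.63 in liver. Its groups overlapped, with a difference of -0.71 ± 0.11 (SE, 1.63-fold, adjusted p = 1.88e-07). *Eif1*, *Eif1a*, *Eif1b* and *Eif2d* were also higher in liver, by 0.25 to 0.56, but each turned sign with median centring, to values between 0.038 and 0.066. *Eif1ad* was higher in colon by 0.35 with its brightest probe and higher in liver with its other probe (-0.86), so its direction rests on the probe.

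The eIF2B complex split in the same way, with *Eif2b1* and *Eif2b2* higher in colon and *Eif2b4* and *Eif2b5* higher in liver, all 4 past FDR under 0.05, though *Eif2b5* turned from -0.17 to 0.42 with median centring. *Eif2b3* had no probe under these names. The levels of *Eif2b4*, which encodes the delta subunit, ranged from -0.26 to 0.09 in colon and from 0.50 to 1.05 in liver. No colon mouse reached the lowest liver mouse, and the difference was -0.94 ± 0.05 (SE, 1.92-fold, adjusted p = 5.62e-23). *Eif2b1*, for the alpha subunit, ranged from 0.25 to 0.67 in colon and from -0.38 to 0.20 in liver, again without overlap, with a difference of 0.58 ± 0.05 (SE, adjusted p = 1.25e-15) just short of the fold threshold.

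Of 13 genes of eIF3, 6 were higher in colon (*Eif3b*, *Eif3c*, *Eif3e*, *Eif3f*, *Eif3h* and *Eif3l*), 3 were higher in liver (*Eif3d*, *Eif3j1* and *Eif3m*) and 4 did not pass, and *Eif3d* and *Eif3m* turned sign with median centring, to 0.018 and 0.23. *Eif3j1* encodes a loosely bound subunit that sits near the decoding site. It ranged from -1.49 to -0.45 in colon with a median of -1.12, and from -0.13 to 0.56 in liver with a median of 0.06. The tissues did not overlap, all 3 probes of the gene lay between -1.32 and -1.12, and the representative gave -1.17 ± 0.08 (SE, 2.25-fold, adjusted p = 9.40e-18). *Eif3f*, a core subunit with an MPN domain, ranged from 0.26 to 1.20 in colon and from -0.57 to 0.18 in liver. It differed by 0.90 ± 0.07 (SE, 1.86-fold, adjusted p = 6.33e-15), without overlap. *Eif3h*, the partner with the same domain, also did not overlap, at 0.54 ± 0.05 (SE). *Eif3c*, *Eif3l* and *Eif3b*, which are scaffold and RNA-binding subunits, were higher in colon by 0.57, 0.56 and 0.38, and the 4 probes of *Eif3c* all passed with values from 0.57 to 0.99.

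The eIF4 genes for cap binding, scaffold and helicase were divided as well, with 4 of 11 higher in colon, 4 higher in liver and 3 not passing, but with median centring all 4 of those higher in liver turned sign (*Eif4a1* to 0.19, and *Eif4e*, *Eif4e2* and *Eif4g1* as given here). *Eif4g2* did not pass by its brightest probe, but its 4 probes ran from -0.46 to 0.32, with 1 past FDR under 0.05 in each direction. *Eif4e*, the canonical cap-binding protein, ranged from -1.10 to -0.25 in colon with a median of -0.56, and from -0.58 to 0.20 in liver with a median of -0.20. The groups overlapped, and the difference of -0.44 ± 0.07 (SE, adjusted p = 1.23e-06) turned to 0.07 with median centring. In every diet the lowest colon values of *Eif4e* were those of replicates 5 and 6 (-1.10 to -0.82), each replicate number being 1 slide. The model used 1 slide correlation for all probes, so the SE may be too small for such a gene. *Eif4e2*, a cap-binding homologue linked to repression, stood on the same side at -0.30 ± 0.05 (SE), turning to 0.20. *Eif4e3*, the third homologue, went the other way at 0.65 ± 0.13 (SE, 1.57-fold, adjusted p = 1.19e-05), from 0.42 to 1.54 in colon and from -0.17 to 1.15 in liver. *Eif4h*, a cofactor that stimulates the helicase, ranged from 0.03 to 0.45 in colon and from -0.81 to -0.26 in liver. It did not overlap and differed by 0.71 ± 0.05 (SE, 1.64-fold, adjusted p = 1.87e-18). The scaffold *Eif4g1* was higher in liver with both probes (-0.41 and -0.80), although the first turned to 0.08 with median centring.

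The repressors of eIF4E differed between tissues, and some of them varied widely within diet groups. *Eif4ebp1* and *Eif4ebp3* were higher in liver, by 0.64 ± 0.10 and 0.74 ± 0.19 on the log2 scale (SE, adjusted p = 4.93e-07 and 6.00e-04), and *Eif4ebp2* was higher in colon by 0.53 ± 0.14 (SE, adjusted p = 0.00124). With median centring *Eif4ebp1* and *Eif4ebp3* kept the sign but not the call, at -0.17 and -0.24, as did *Eif2b4* (-0.50), *Eif5* (-0.26) and *Eif5a2* (-0.23), which fell short of the fold threshold. *Eif4ebp3* ranged from -0.10 to 2.66 in liver and from 0.51 to 1.21 in colon, so the liver mice enclosed the colon range. Its SD within diet groups in liver was 0.69, the widest of the 46 genes and above 99.5% of all probes, and *Eif4ebp2* came next in liver at 0.60 (99%). This SD holds differences between slides as well as between mice. The lowest *Eif4ebp2* values of the HL (-1.38), LH (-0.95) and LL (-1.35) livers were all of replicate 3, on the same slide. In colon *Eif4ebp1* varied most at 0.41 (97.7%). At the other end *Eif3h*, *Eif3i* and *Eif2b1* had SDs of 0.080 to 0.085 in colon, below 97% of all probes. Among the eIF5A and eIF6 genes, the brightest probe of *Eif5a2* was higher in liver by 0.84 ± 0.07 (SE, 1.79-fold) without overlap. Its other probe was higher in colon by 0.27, also past FDR under 0.05. That probe was well above background on all 24 colon arrays and 0 of 24 liver arrays, so its liver level is only a bound. The direction of *Eif5a2* thus rests on the probe. *Eif6*, a factor that keeps the large subunit apart until it joins, was higher in colon by 0.32 with its brightest probe and by 0.37 with the other.

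**Figure D2:**
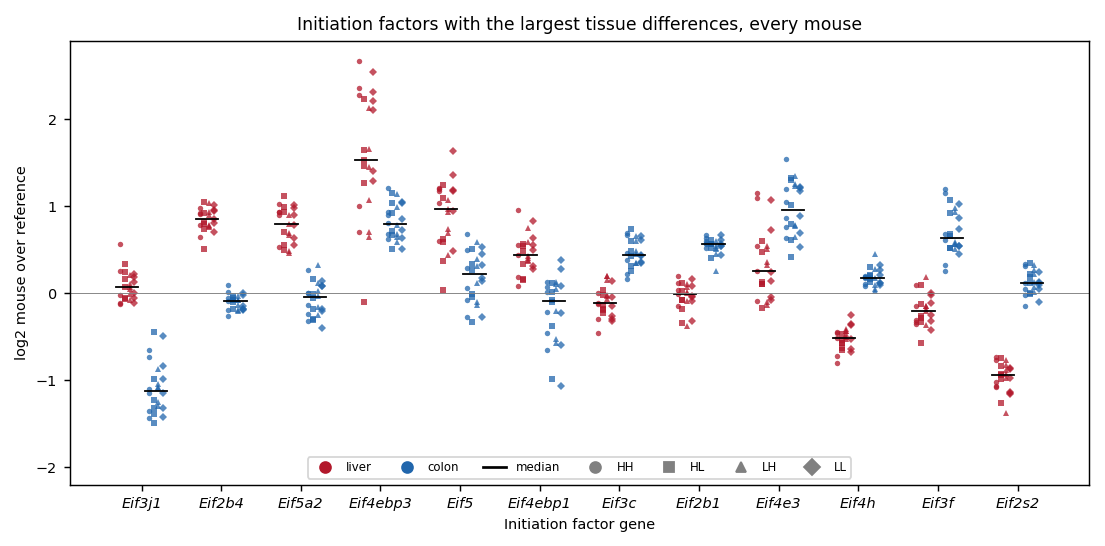
Log2 mouse over reference of each mouse for the 6 genes with the largest difference in each direction, liver in red and colon in blue, with symbols for the diet group and black lines for the median. The liver and colon points of *Eif3j1*, *Eif2b4* and *Eif2s2* are separate, while those of *Eif4ebp3* overlap, with liver values from -0.10 to 2.66.

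The list of 41 other translation genes (elongation and release factors, kinases of eIF2, mTOR pathway genes and poly(A)-binding proteins), of which 40 were measured, had 13 genes higher in colon and 20 higher in liver at FDR under 0.05 with a median of -0.12, beside 16 and 18 of the 46 initiation factor genes. The elongation factors *Eef1b2* (1.11), *Eef1g* (0.95) and *Eef2* (0.84) and the poly(A)-binding protein *Pabpc1* (1.69) were among those higher in colon, and *Denr* (-0.54) and *Abce1* (-0.55), which act in reinitiation and ribosome recycling, among those higher in liver. These names were chosen after their values were seen.

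Whether the diet of the dam changed initiation factors in the liver was addressed by HH *vs.* LH. No member passed the threshold in limma, with 0 of 87 probes called against 0% of 41171 probes, and the lowest adjusted p of a member was 0.19. The members' differences were wider than those of all probes, with a median size of 0.17 against 0.09. Members also varied more among liver mice of the same diet group, with a median SD of 0.21 by gene against 0.17 for all probes, which holds differences between slides as well. The members' median difference was 0.02, or 0.11 with median centring, where that of all probes was -0.067. At an unadjusted p under 0.05 there were 14 probes higher (16.1% against 5.84% of all probes) and 5 lower (5.75% against 6.14%) in LH. *Eif4b*, *Eif4g1* and *Eif4g2* each supplied 2 of the higher probes. By gene 5 of 46 were higher and 3 lower, the latter *Eif1ax*, *Eif3m* and *Eif4e*. One of the 5 lower probes was the *Eif5a2* probe that was not well above background in liver. No other tool than limma was run, and other processing with the same model gave 0 calls in every alternative, with 11 to 27 probes at an unadjusted p under 0.05. Leaving out 1 mouse gave 9 to 20 such probes in place of 19, and 9 without LH replicate 5, 10 without HH replicate 5, 11 without LH replicate 3 and 12 without HH replicate 4. In 3 probes, of *Eif4b*, *Eif4enif1* and *Eif4g1*, every LH mouse lay above every HH mouse (3.45% against 0.697% of all probes). None of these was the brightest probe of its gene, so by gene the count was 0 of 46. In 0 member probes every LH mouse lay below every HH mouse, against 0.843% of all probes.

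The scaffold *Eif4g1* had the lowest p among member probes, and was singled out after its values were seen. Its probe of lower signal measured 0.61, 0.69, 0.70, 0.76 and 0.77 in the 5 HH livers and 0.90 to 1.48 in LH with a median of 1.16. All LH livers lay above all HH livers. The HL livers ranged from 0.76 to 1.05 and the LL livers from 0.56 to 1.42, both overlapping with HH and LH. The difference LH minus HH was 0.47 ± 0.11 (SE, adjusted p = 0.19), and LL minus HH was 0.30 ± 0.11 (SE, adjusted p = 1). The brightest *Eif4g1* probe gave the same size, 0.47 ± 0.20 (SE, adjusted p = 0.37), with HH livers at 0.13, 0.26, 0.38, 0.45 and 0.66 and LH livers from 0.30 to 1.18 with a median of 1.00. These groups overlapped. In colon LH minus HH was -0.03 ± 0.08 (SE) for the probe of lower signal and -0.08 ± 0.15 (SE) for the brightest, and the difference between the tissues was -0.52 ± 0.12 (SE) for the former, with an adjusted p of 0.089 in limma. With the scanner's processed signals it was -0.79 with an adjusted p of 0.028, past the threshold, as were 0.0243% of all probes.

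The core of eIF3 supplied the lowest p values among the representative probes, named by rule. *Eif3l* measured -0.60, -0.22, -0.12, -0.07 and 0.02 in the HH livers and from -0.06 to 0.44 with a median of 0.14 in LH. The LH mice were mostly above the HH mice with overlap at the edge, and on each of the 6 slides the LH array exceeded the HH array, by 0.11 to 0.60, where 2 of the 6 HH arrays were of the same mouse. The difference was 0.37 ± 0.12 (SE, adjusted p = 0.24 in limma). *Eif3c* measured -0.46, -0.30, -0.12, -0.12 and -0.0015 in HH and from -0.06 to 0.20 with a median of 0.07 in LH. It was also higher on 6 of 6 slides, at 0.27 ± 0.09 (SE, adjusted p = 0.27), but the mean of its 4 probes turned the sign to -0.11. *Eif3b* measured -0.30, -0.19, -0.15, -0.10 and 0.06 in HH and from -0.14 to 0.15 with a median of 0.08 in LH, higher on 6 of 6 slides at 0.19 ± 0.08 (SE, adjusted p = 0.34). Not all subunits went this way, since *Eif3m*, *Eif3e* and *Eif3h* had negative estimates by brightest probe and *Eif3m* was -0.27 ± 0.13 (SE, adjusted p = 0.41). The 2 probes of *Eif3e* split in sign, at -0.25 and 0.30, so its direction rests on the probe. *Eif4e* measured -0.22, -0.19, -0.16 and 0.0071 in 4 HH livers, with 1 mouse lost to an outlier spot, and -0.58 to -0.14 with a median of -0.39 in LH. The groups overlapped at -0.22 ± 0.10 (SE, adjusted p = 0.39).

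**Figure D3:**
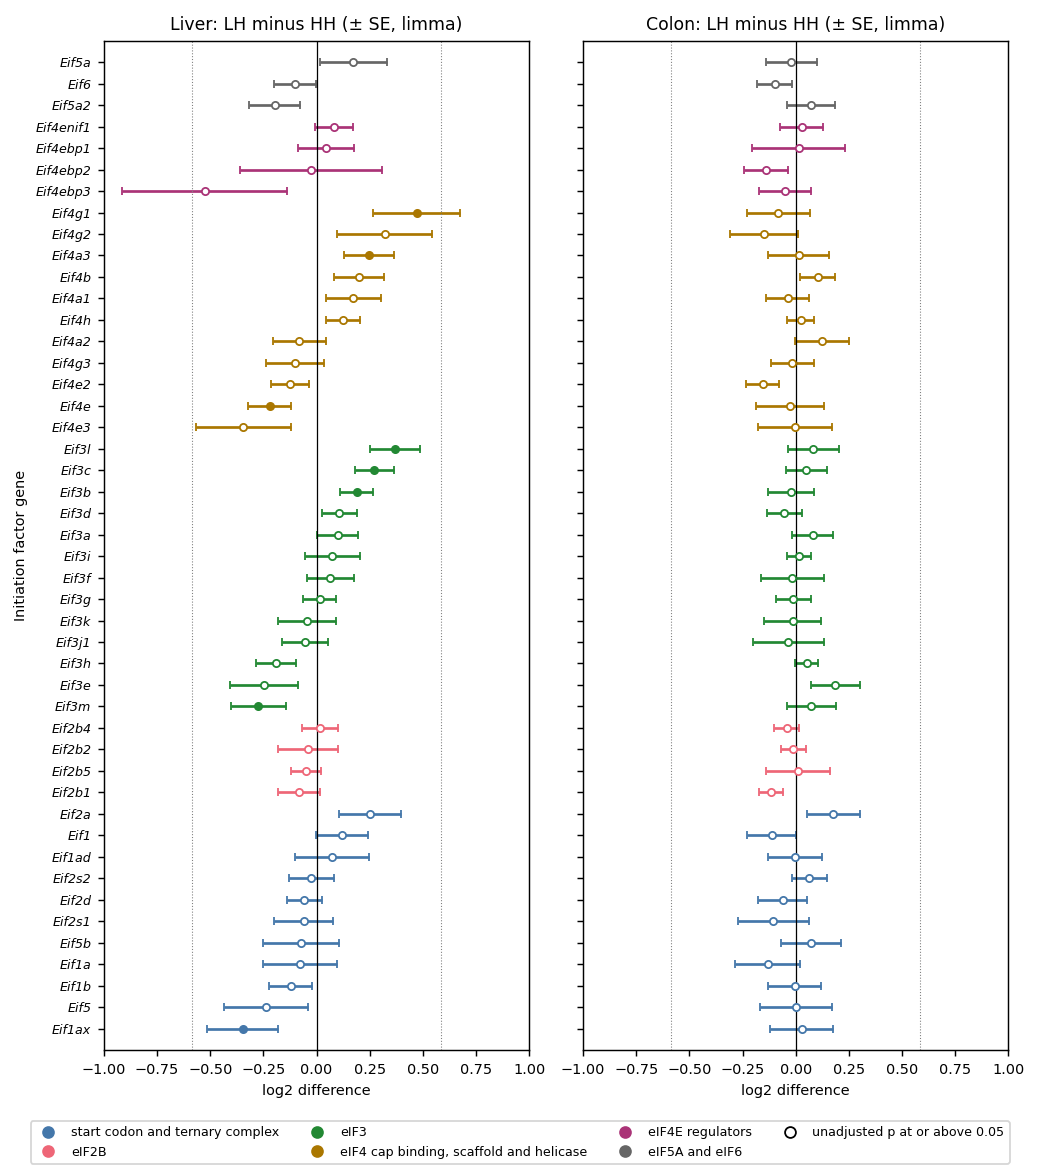
LH minus HH difference of log2 mouse over reference for the 46 genes in liver (left) and colon (right), with points for the limma estimate, bars for its standard error and filled points for an unadjusted p under 0.05. In liver 8 genes are filled, 5 to the right and 3 to the left, in colon 0, and no gene passed FDR under 0.05 in either tissue.

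Some markers of cell types had a low unadjusted p in the same comparison. The summed hepatocyte signal (log2 Cy3) ranged from 18.7 to 19.4 in HH livers and from 18.9 to 19.7 in LH livers, and LH minus HH was 0.52 for *Fgb* (unadjusted p = 6.46e-04) and 0.83 for *Cyp2e1* (unadjusted p = 0.00874). The leukocyte gene *Ptprc* was -0.61 (unadjusted p = 0.00427), but the 5 immune genes differed in sign, with *Cd3e* at 0.18 and *Cd79a* at -0.05, and their summed signal ranged from 10.9 to 12.9 in HH livers and from 10.9 to 12.2 in LH livers. The globin *Hba-a1* was -0.50 (unadjusted p = 0.00200), with overlapping sums of 2 erythroid genes. The adipocyte list reached 12.0 in 1 LH liver against at most 9.08 in HH. The part of these in the initiation factor values was not tested. Of the 40 other translation genes, 3 were higher and 3 lower at an unadjusted p under 0.05 and 0 passed FDR, and the lowest were *Paip2b*, an inhibitor of poly(A)-binding protein (0.50 ± 0.12, SE, adjusted p = 0.19), *Mcts1*, a partner of *Denr* (-0.43 ± 0.15, SE, adjusted p = 0.28), and *Larp1*, a repressor of mRNAs with a 5′ oligopyrimidine tract (0.30 ± 0.11, SE, adjusted p = 0.29).

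**Figure D4:**
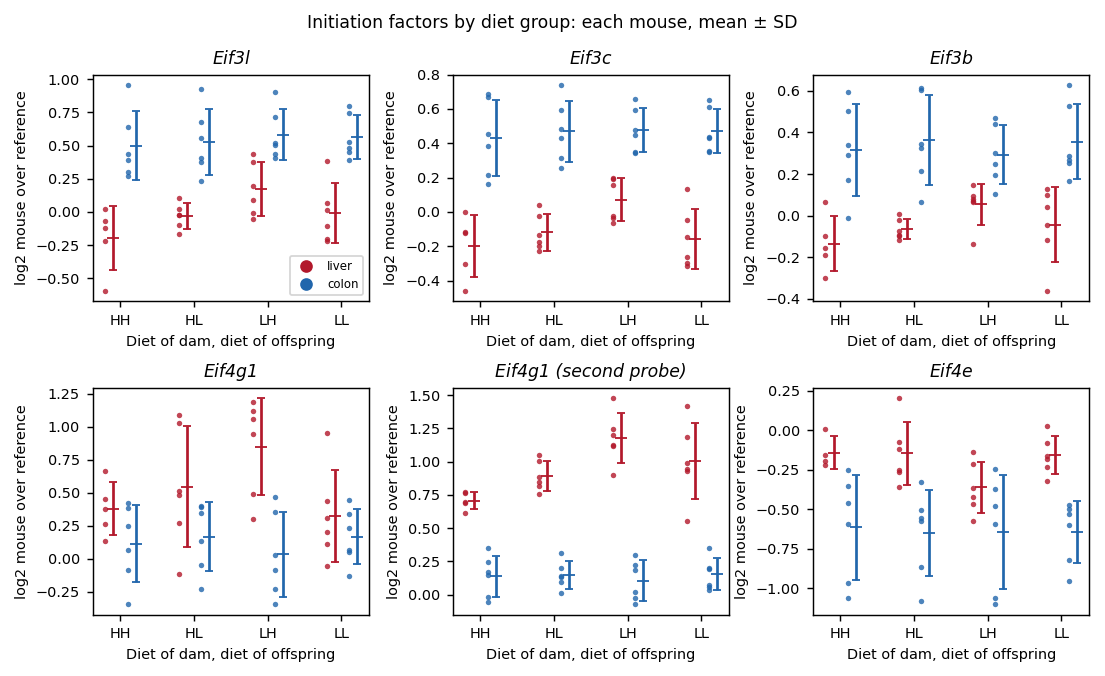
Log2 mouse over reference by diet group for 5 initiation factor genes, *Eif4g1* with both probes, with points for mice, horizontal ticks for the mean and bars for the SD, liver in red and colon in blue. For the second *Eif4g1* probe the LH livers (0.90 to 1.48) lie above all HH livers (0.61 to 0.77), while the colon groups share 1 range.

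Diet L after weaning alone and diet L throughout were addressed by HH *vs.* HL and HH *vs.* LL, in which the median size of a member's liver difference was 0.09 and 0.08. In HL *vs.* HH, 0 member probes were called against 0% of all probes, and 2 of 87 (2.3%, of *Eif4b* and *Eif5b*, named after their values were seen) had an unadjusted p under 0.05 against 4.38%, both higher in HL (2.13% of all probes higher and 2.24% lower), or 9 (10.3% against 6.43%) with slide as a block. *Eif5* had the lowest p of a gene, with HH livers at 0.60 to 1.21, HL livers at 0.03 to 1.24 and a difference of -0.39 ± 0.20 (SE, adjusted p = 0.95). The groups overlapped, as did *Eif6* (-0.18 ± 0.10, SE) and *Eif4e3* (-0.39 ± 0.22, SE). The summed signal (log2 Cy3) of 3 pancreas acinar genes reached 13.6 in 1 HL liver, against at most 10.6 in HH livers. Its part in these values was not tested. In LL *vs.* HH, 0 were called against 0%, and 2 probes (2.3%) had an unadjusted p under 0.05 against 3.43%, both higher in LL (1.25% of all probes higher and 2.18% lower). The lowest p values by gene were those of *Eif4a2* (-0.21 ± 0.12), *Eif3l* (0.19 ± 0.12) and *Eif3g* (0.12 ± 0.08, SE, adjusted p = 1 for each). In LL *vs.* HL, limma gave 0 calls against 0%, and 4 probes (4.6%) were higher in LL at an unadjusted p under 0.05 against 1.43% of all probes, or 3.07% either way. No member had groups without overlap there, against 0.0753% of all probes higher and 0.034% lower. In LL *vs.* LH, limma gave 0 calls against 0%, with 6 probes (6.9%) at an unadjusted p under 0.05 against 6.38%, of which 1 was higher and 5 were lower in LL against 3.19% of all probes each way.

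As factors, the dam diet (LH and LL minus HH and HL) gave 0 calls against 0% of probes and 4 probes (4.6%) with an unadjusted p under 0.05 against 4.14%. Of these, 3 were higher with dam diet L (3.45% against 1.46% of all probes) and 1 lower (1.15% against 2.68%). The *Eif4g1* probe of lower signal had the lowest p (0.29 ± 0.08, SE), and the lower one was the *Eif5a2* probe not well above background in liver (-0.115). *Eif3l* and *Eif4h* supplied the rest. By gene the lowest p values were those of *Eif3l* (0.19 ± 0.08, SE), *Eif4h* (0.11 ± 0.05, SE) and *Eif3b* (0.11 ± 0.05, SE), all at adjusted p = 0.999, with *Eif3b* not under an unadjusted p of 0.05. The offspring diet gave 0 calls against 0% and 0 probes with an unadjusted p under 0.05 against 1.37%, and its lowest p values belonged to *Eif4e* (0.10 ± 0.07, SE), *Eif4g1* (-0.18 ± 0.14, SE) and *Eif3c* (-0.07 ± 0.06, SE, turning to 0.03 with median centring). The interaction, which asks whether the effect of the offspring diet differed with the dam diet, had 0 calls against 0% and 13 probes (14.9%) with an unadjusted p under 0.05 against 11.3% of all probes, or 21 (24.1% against 13.9%) with slide as a block. Of the 13, 4 were positive (4.6% against 5.39% of all probes) and 9 negative (10.3% against 5.96%). With array weights 3 probes (3.45% against 1.21% of all probes) were called, of *Eif4b* (-1.05), *Eif4g2* (-1.14) and *Eif3j1* (1.48), at adjusted p of 0.0488 to 0.0498.

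In colon no initiation factor passed the threshold in any diet comparison. In limma, LH *vs.* HH, HL *vs.* HH and LL *vs.* HH each had 0 member probes called against 0% of 41173 probes and 0 member probes at an unadjusted p under 0.05, against 3.25%, 1.46% and 1.71% of all probes, though with slide as a block LH *vs.* HH had 6 (6.9% against 8.08%). The median size of a member's LH minus HH difference was 0.06 in colon with a median SE of 0.12. *Eif2b1* had the lowest p of this comparison, with HH colons from 0.51 to 0.67, LH colons from 0.25 to 0.59 and a difference of -0.12 ± 0.06 (SE, adjusted p = 1), followed by *Eif4e2* (-0.16 ± 0.08, SE) and *Eif3e* (0.19 ± 0.11, SE). The lowest p values of HL *vs.* HH were those of *Eif2b2* (0.09 ± 0.06, SE), *Eif2b1* (-0.06 ± 0.06, SE, turning to 0.03 with median centring and to 0.05 with the Cy3 channel alone) and *Eif4b* (0.07 ± 0.08, SE), and of LL *vs.* HH those of *Eif4ebp2* (0.13 ± 0.10, SE), *Eif6* (-0.11 ± 0.08, SE) and *Eif4e2* (-0.09 ± 0.08, SE). The dam diet had 1 probe at an unadjusted p under 0.05 against 2.11% of all probes, that of *Eif6* (-0.13 ± 0.06, SE), followed by *Eif4e2* (-0.11 ± 0.05, SE) and *Eif3e* (0.15 ± 0.08, SE). The offspring diet had 1 probe against 2.03%, and by gene the lowest p values were those of *Eif4ebp2* (0.14 ± 0.07, SE), *Eif2b2* (0.07 ± 0.04, SE) and *Eif4a2* (-0.13 ± 0.09, SE). The HH values of the genes named for LH, HL and LL overlapped those of the group compared.

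Whether liver and colon differed in their response was tested directly in all 8 groups. For LH minus HH, 0 member probes were called against 0% of 41171 probes in limma, with 15 (17.2%) at an unadjusted p under 0.05 against 12.1%. Of these, 4 had a larger value in colon (4.6% against 6.58% of all probes) and 11 a larger value in liver (12.6% against 5.57%). The genes with the lowest p were *Eif3h* (0.26 ± 0.09, SE, adjusted p = 0.23) and *Eif3e* (0.42 ± 0.16, SE, adjusted p = 0.25), named after their values were seen. For *Eif3e* this is the brightest probe, and its probes split in sign in LH minus HH of the liver. For HL minus HH the counts were 0 called against 0% and 1 probe (*Eif6*, 0.26 ± 0.11, SE) at an unadjusted p under 0.05, that is 1.15% against 4.57%. The precision of these arrays, with a median SE of 0.13 for a member's diet difference in liver, limits the size of diet difference that could be detected.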

How the data were processed

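RNA of 48 samples was hybridised with a common reference to Agilent 4 x 44k arrays. Scanner output of the authors holds, per spot and dye, a median intensity with its local background, from Feature Extraction 10.10.1.1 (file headers; the methods name another version), beside processed intensity. They also deposited log2 ratios, whose correlation with unsubtracted loess ratios of mouse over reference was -1 to -0.9997, so that these deposited log2 values run as reference over mouse. The authors' methods give global loess, limma and R 3.0.2, with a fold change over 1.5 and FDR under 0.05.

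Of 45018 spots, 43379 were not controls and stood for 41174 probes, of which 27050 were named through their accession in the RefSeq table of GRCm38.p6. Spots with a background at or above their signal took the array's median background (at most 840 spots in a channel), then normexp (offset 50) and global loess with controls at weight 0 were applied, outlier spots were left out and spots of a probe averaged. limma 3.58.1 in R 4.3.3 (lmFit, eBayes) was fitted to each tissue, and to both tissues with slide as a random block (correlation 0.21 over 8000 probes), needing 2 mice in each group. Adjusted p-values are Benjamini-Hochberg over all probes tested. The model was tested on simulated data.

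The descriptions give a slide for each array, and each of the 12 slides held 1 array of each group of 1 tissue. Tissues were thus never compared within a slide, and 1 slide correlation served all probes. Deviations from group means correlated with a median of 0.17 between arrays on the same liver slide (lowest -0.32) and 0.36 on the same colon slide (lowest 0.09), against -0.03 and -0.13 on different slides. Slide as a fixed block was an alternative, as were other backgrounds, scalings, filters, array weights, other uses of the HH mouse with 2 arrays, mice with *Xist* left out, the deposited table, only the groups compared, the mean of a gene's probes and each mouse left out.

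Named genes were, for each tissue and diet comparison with HH or factor, the 3 of lowest p, any called in a diet comparison, the 6 with the largest tissue difference each way, the cap-binding family with its repressors, and 3 other translation genes of lowest p in HH *vs.* LH of the liver. Members, lists and markers were chosen with earlier results of these data known.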

Additional observations from a re-analysis of the deposited data

Results flagged for a closer look

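Among the named genes, 192 sets of mice (a gene in 1 diet group of 1 tissue) were checked for a mouse far from the rest of its group, with Dixon's test, which marks about 1 set in 20 by chance. It marked 8. The lowest *Eif3b* of the LH livers was -0.14, against 0.07 to 0.15 in the others. *Eif2s2* was -1.38 in 1 LH liver, against -0.98 to -0.77. Of the HL livers, 1 mouse had *Eif6* at -0.33 (others -0.07 to 0.09), another had *Eif3g* at 0.16 (others 0.29 to 0.36), and a further mouse had *Eif4e2* at -0.23 (others 0.19 to 0.31). *Eif4e2* was also low in 1 LH colon, at -0.50 against -0.25 to -0.17. *Eif2b2* was -0.60 in 1 LL liver against -0.18 to -0.02, and *Eif5a2* was 0.53 in 1 HH liver, the mouse with a pair of arrays, against 0.90 to 1.02. All 8 mice were the lowest of their group.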

How the results depend on the processing

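Under the alternatives 232 counts of calls, in both directions together, stayed within 1.5 times of the reported ones and 3 did not, but by direction median centring turned 7 higher in colon and 17 higher in liver into 31 and 4. With a mouse left out every diet count was 0, which says nothing of stability where none was called; no mouse was left out singly for colon minus liver. No minimum fold raised the calls between tissues to 65, the scanner's processed signals gave 1 call (*Eif4g1*) for the tissue difference in LH minus HH, and array weights gave 3 for the liver interaction. Median centring moved medians of members beyond the spread between mice: in liver to 0.11 (LH minus HH, all probes -0.067), 0.12 (HL minus HH), 0.17 (LL minus HH), 0.11 (dam diet), 0.066 (offspring diet) and -0.10 (interaction), in colon to -0.073 (LH minus HH), 0.096 (HL minus HH), 0.10 (LL minus LH), -0.056 (dam diet) and 0.099 (offspring diet), between tissues to 0.30 and, for the difference in LH minus HH, -0.17. The same centring reversed *Eif4e* to 0.074 and *Eif4e2* to 0.20 between tissues, *Eif2b1* in colon HL minus HH to 0.028 (0.054 with the Cy3 channel alone) and *Eif3c* for liver offspring diet to 0.028, and the mean of its probes turned *Eif3c* in liver LH minus HH to -0.11. For named genes 562 other values kept direction and call, 12 gained and 8 lost the call. The causes were not tested.

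With slide as a replicate block, 0 member probes were called in every diet comparison of either tissue, and no other call changed. Mice with *Xist* left out gave 24 calls between tissues, as before, and 14 in place of 19 probes at an unadjusted p under 0.05 in HH *vs.* LH of the liver. The liver mice left out were of HL and LL, so in HH *vs.* LH only the estimate of spread shared by the groups changed. The number of arrays limits the precision.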
